A study of Homo sapiens with 15 samples.

Results

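The low concentration of fine particulate matter was examined here as 1 comparison, 1 µg/cm2 of PM2.5 for 24 h against vehicle control in BEAS-2B cells. It takes 6 of the 15 RNA-Seq libraries of the study, chosen by their titles, and the 17599 genes of 58219 in the deposited table that passed a filter on low counts. BEAS-2B is 1 immortalized line of human bronchial epithelial cells, and it was grown on collagen in serum-free medium. PM2.5 is airborne particulate matter of the fine size class, and that used here was collected on filters from the winter air of Beijing and extracted in water. Cells received fresh medium alone (the 3 controls) or fresh medium with 1 µg/cm2 of PM2.5 (3 libraries), and both groups were collected after 24 h. The other groups were a 24-h exposure to 30 µg/cm2, which shares these 3 controls, and 1 µg/cm2 given daily, which has its own 3 controls. The labels give the daily protocol 7 days and the methods give 6 exposures with collection on day 7. Each group was made in 3 independent experiments, and the series record names the last number of a sample as the experimental batch, so libraries of the same number were paired.

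Urban particulate matter carries polycyclic aromatic hydrocarbons, which bind the aryl hydrocarbon receptor (AhR), a transcription factor held in the cytoplasm by a chaperone complex. With a ligand, AhR enters the nucleus, pairs with ARNT and binds xenobiotic response elements. Its best-known targets are the monooxygenases *CYP1A1* and *CYP1B1*, and the receptor also induces its own inhibitors, *AHRR* and *TIPARP*. Particles and the quinones made from such hydrocarbons are oxidants as well, and these release NRF2, the factor that drives antioxidant and ferritin genes. Bronchial epithelium is the first barrier that meets inhaled particles and is a source of cytokines and matrix proteins in the airway.

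The total count per library was 21865374 to 34724765 in the controls and 21540120 to 29134971 after 1 µg/cm2, so that the floor of 3 counts equals 0.0903 to 0.149 CPM (read counts scaled to the TMM-normalized library size). The floor is a threshold on counts and does not cover the spread between libraries. Experiment 2 stood apart from experiments 1 and 3 in both groups. Mitochondrial transcripts took 4.17% and 4.40% of the counts in its treated and control library against 2.998% to 3.416% in the other 4. A chi-square test of the counts of 1 group gave 70.7 to 169 per degree of freedom for pairs with experiment 2 and 13.9 to 17.2 for experiments 1 and 3. The experiment is therefore a term of the model here, and the main counts of calls are given without that term and without experiment 2 as well. All 13 markers of basal and simple airway epithelium were expressed, with a summed level of 4642 to 5091 CPM in the controls and 4141 to 5363 CPM after 1 µg/cm2. All 11 mesenchymal markers were expressed too, at 530 to 801 and 451 to 755 CPM. Of 8 markers of differentiated airway epithelium, 5 were at or under the floor in all 6 libraries, namely *FOXJ1*, *SCGB1A1*, *SCGB3A1*, *MUC5B* and *TFF3*. Of 9 leukocyte and endothelial markers, 6 were at or under the floor, *PTPRC*, *CD3E*, *CD68*, *LYZ*, *CDH5* and *VWF*. The summed level of these 9 was 11.1 to 13.1 CPM in the controls and 14.6 to 23.7 CPM after 1 µg/cm2, nearly all of it *CD14*, and its part in the results was not tested.

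Promoters of 6 genes that rose are shown, 4 of them AhR target genes and 2 noncoding genes near such genes. The sequences are those of RefSeq on GRCh38.p14, 250 bases before to 30 bases after the start of 1 promoter entry. That start can differ from the start of the gene in the deposited table, which is 304176 for *AHRR*. The sequences run 5′ to 3′ on the strand of the gene. Matches to the core of the xenobiotic response element are in capitals (GCGTG, or CACGC where the core lies on the other strand).
CYP1A1, chr15:74725499-74725778, minus strand: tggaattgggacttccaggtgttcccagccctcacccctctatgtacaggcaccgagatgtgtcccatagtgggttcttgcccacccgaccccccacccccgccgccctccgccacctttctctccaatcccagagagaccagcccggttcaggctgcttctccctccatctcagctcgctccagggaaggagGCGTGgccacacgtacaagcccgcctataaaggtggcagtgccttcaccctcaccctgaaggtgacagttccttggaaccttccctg
AHRR, chr5:321464-321743, plus strand: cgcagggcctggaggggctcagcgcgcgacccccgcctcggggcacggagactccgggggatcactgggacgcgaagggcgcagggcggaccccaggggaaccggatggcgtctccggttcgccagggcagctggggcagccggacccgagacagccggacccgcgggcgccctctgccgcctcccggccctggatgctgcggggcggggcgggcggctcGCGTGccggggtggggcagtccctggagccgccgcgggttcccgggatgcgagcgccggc
TIPARP, chr3:156674340-156674619, plus strand: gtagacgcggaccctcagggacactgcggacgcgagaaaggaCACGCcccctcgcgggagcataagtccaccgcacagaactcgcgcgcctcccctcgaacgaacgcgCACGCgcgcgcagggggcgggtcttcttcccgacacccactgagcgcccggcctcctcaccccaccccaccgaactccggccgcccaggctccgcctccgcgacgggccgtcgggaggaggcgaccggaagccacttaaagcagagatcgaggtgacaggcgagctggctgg
SLC7A5, chr16:87869478-87869757, minus strand: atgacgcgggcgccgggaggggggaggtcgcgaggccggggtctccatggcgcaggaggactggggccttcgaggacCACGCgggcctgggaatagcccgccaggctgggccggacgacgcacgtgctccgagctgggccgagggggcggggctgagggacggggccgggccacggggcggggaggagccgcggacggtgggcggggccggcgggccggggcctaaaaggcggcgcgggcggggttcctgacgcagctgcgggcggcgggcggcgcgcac
LINC00886, chr3:156817033-156817312, minus strand: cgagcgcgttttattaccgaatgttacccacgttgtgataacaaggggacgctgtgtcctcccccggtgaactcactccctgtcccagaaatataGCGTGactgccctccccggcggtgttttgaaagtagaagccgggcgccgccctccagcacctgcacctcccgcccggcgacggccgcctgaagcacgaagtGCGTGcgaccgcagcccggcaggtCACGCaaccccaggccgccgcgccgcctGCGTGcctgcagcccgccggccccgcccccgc
GCAWKR, chr15:100849502-100849781, plus strand: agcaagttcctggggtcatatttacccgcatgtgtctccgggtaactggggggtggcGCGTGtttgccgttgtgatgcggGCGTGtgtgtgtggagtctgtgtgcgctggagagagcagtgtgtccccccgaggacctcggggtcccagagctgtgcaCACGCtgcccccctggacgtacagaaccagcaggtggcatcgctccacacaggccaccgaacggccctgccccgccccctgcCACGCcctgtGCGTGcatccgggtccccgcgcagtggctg
The core lay 57 bases before the start of the entry in *CYP1A1* and 30 bases before it in *AHRR*, in the first of its entries. A second entry of *AHRR* held 2. *TIPARP* held 2 matches in the entry shown, at 208 and 142 bases before its start, and none in its other entries, and *SLC7A5* held 1 at 173. *LINC00886* held 4, at 155, 54, 30 and 2 bases before its start, and *GCAWKR* held 5 in the stretch shown and 6 in the full window of 300 bases, with none in its other entry. Windows with 4 or more matches made up 1.63% of the 35116 promoters in the table, and windows with 6 or more 0.319%. *LINC00886* and *GCAWKR* held the most matches of the called genes with an entry. They were picked from many, so these shares do not test them. At least 1 match is common, since 36.5% of all promoters and 56.9% of the 12096 tested genes with an entry had one. A promoter entry was found for 53 of the 74 called genes, of which 23 of 33 that rose (69.7%) and 9 of 20 that fell (45.0%) had one. No other motif was searched, and a match describes the letters and not a bound site.

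After 24 h with 1 µg/cm2 of PM2.5, 74 genes passed both thresholds of the study, namely a log2 fold-change of 0.6 or more in either direction and an adjusted p below 0.05. This is 0.420% of those tested. Of these, 44 were higher (0.250%) and 30 lower (0.170%). The p-values come from edgeR's quasi-likelihood test with the experiment as a block and are adjusted by Benjamini and Hochberg over all tested genes, values after ± are standard errors (SE), and all 3 values of a group are given in the order of experiments 1, 2 and 3. In all 74 genes, the 3 experiments changed the same way, as 27.5% of tested genes did. The control and treated libraries did not overlap for 30 of the 44 genes that rose and 14 of the 30 that fell, against 4.44% of tested genes. The median log2 fold-change was 1.26 among the genes that rose and -0.86 among those that fell. The median control level was 52.3 CPM among the genes that fell and 8.48 CPM among those that rose. A gene that rose could pass the low-count filter through its treated libraries, whereas one that fell needed counts in the controls. The lowest mean control level was 0.026 CPM among the genes that rose and 4.39 CPM among those that fell. These levels are therefore a description only. At an unadjusted p under 0.05, 1538 genes (8.74%) passed. The counts rest on the handling of experiment 2. Without the block, 11 genes were called (0.0625%), and without the libraries of experiment 2, 590 of 17950 were. Counts of list members given below are to be read beside these. Leaving out the control of experiment 2 alone gave 410, whereas leaving out the control of experiment 1 or 3 gave 17 or 32, and the treated library of experiment 1 or 3 gave 14 or 17. The 11 were *CYP1A1*, *AHRR*, *NKD2*, *CYP1B1*, *ITGA11*, *LINC00886*, *SLC7A5*, *GCAWKR*, *LOX*, *EFEMP1* and *SMOC1*. Since each library is a bulk measurement, fewer cells that express a gene and less RNA per cell cannot be told apart.

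**Figure D1:**
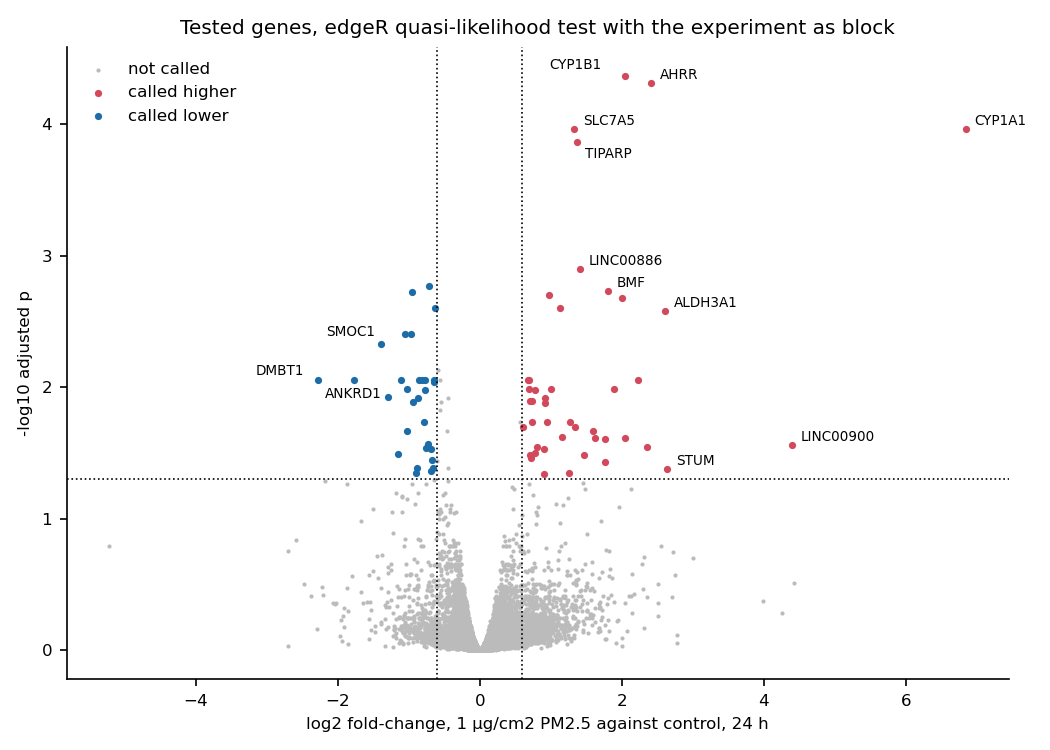
Log2 fold-change of each of the 17599 tested genes at 1 µg/cm2 of PM2.5 against control at 24 h (x axis) against -log10 of the adjusted p-value (y axis), with the 44 genes called higher in red, the 30 called lower in blue and dotted lines at the thresholds. *CYP1A1* lies alone at a log2 fold-change of 6.85, and the smallest p-values belong to *CYP1B1* and *AHRR*, while the fitted values of *LINC00900* and *STUM* rest on few control counts.

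The AhR target genes had the highest median change of the lists, and *CYP1A1* had the largest rise of all called genes. Of 13 genes on the list, 11 were tested, 8 rose and none fell. The median log2 fold-change of the 11 was 1.37 against -0.0044 over all tested genes, and 10 of the 11 lay above 0, as 48.7% of tested genes did. Without the block, 4 of the 8 were called, and without experiment 2, 9 genes of the list were.

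*CYP1A1* (ENSG00000140465.13, chromosome 15 from 74719542 to 74725610) oxidizes aromatic hydrocarbons and is the classical readout of the receptor. *CYP1A1* was at 1.29, 0.565 and 1.45 CPM in the controls and at 152, 88.9 and 152 CPM after 1 µg/cm2. Every treated library was far above every control (log2 fold-change 6.85 ± 0.56 SE, adjusted p = 1.1e-04, 115-fold). *CYP1B1* is the related monooxygenase and was far more abundant at the start. *CYP1B1* was at 244, 176 and 245 CPM in the controls and at 990.1, 686 and 1074 CPM after 1 µg/cm2 (log2 fold-change 2.04 ± 0.14 SE, adjusted p = 4.3e-05). Its exons overlap those of *RMDN2*, *RMDN2-AS1* and *CYP1B1-AS1*, and reads there cannot be assigned with certainty.

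The receptor's own inhibitors rose with them. *AHRR*, which competes with AhR for its partner, was at 4.06, 3.53 and 3.26 CPM in the controls and 21.5, 20.1 and 16.8 CPM after 1 µg/cm2 (log2 fold-change 2.42 ± 0.17 SE, adjusted p = 4.9e-05). An exon of *AHRR* overlaps *PDCD6* on the same strand. *TIPARP*, an ADP-ribosyltransferase that limits AhR activity, was at 87.6, 34.9 and 82.1 CPM in the controls and 198, 107 and 210.4 CPM after treatment (log2 fold-change 1.37 ± 0.12 SE, adjusted p = 1.4e-04). The lowest library for *TIPARP* was the control of experiment 2, and the groups did not overlap. Its exons overlap an antisense gene, *TIPARP-AS1*.

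The other members that rose are enzymes and a transporter. *ALDH3A1*, which detoxifies aldehydes, was at 1.48, 6.92 and 1.28 CPM and then 9.35, 31.6 and 9.48 CPM (log2 fold-change 2.61 ± 0.32 SE, adjusted p = 0.0026). Both libraries of experiment 2 were above the others of their group, and the groups did not overlap. *ALDH1A3*, which makes retinoic acid, was at 72.1, 39.7 and 71.6 CPM and then 124, 57.4 and 125 CPM (log2 fold-change 0.72 ± 0.13 SE, adjusted p = 0.034), and the treated library of experiment 2 lay below the controls of experiments 1 and 3. Exons of *ALDH1A3* overlap *ALDH1A3-AS1*. *NQO1*, a quinone reductase shared with the NRF2 list, was at 199.7, 218 and 236 CPM and then 388, 382 and 459.9 CPM (log2 fold-change 0.92 ± 0.15 SE, adjusted p = 0.013). *SLC7A5*, the amino acid transporter LAT1, was at 575, 616 and 598 CPM and then 1684, 1259.5 and 1589 CPM (log2 fold-change 1.33 ± 0.11 SE, adjusted p = 1.1e-04). In *NQO1* and *SLC7A5*, all treated libraries lay above all controls.

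Of the list, 3 tested genes did not pass. *CYP2S1* had a log2 fold-change of 0.09 ± 0.13, adjusted p = 0.91. *SERPINB2*, an inhibitor of plasminogen activators, had 1.39 ± 0.42, adjusted p = 0.29. *EREG*, a ligand of the epidermal growth factor receptor, had -0.38 ± 0.13, adjusted p = 0.38. *CYP1A2* and *UGT1A6* did not pass the filter and held no count in any control. None of the 7 genes of the receptor complex was called by edgeR or DESeq2 and 1 had an unadjusted p under 0.05, as 8.74% of tested genes had. Log2 fold-changes of the 7 ran from -0.29 to 0.09. The receptor gene *AHR* was at 44.5, 51.2 and 50.9 CPM in the controls and 36.7, 43.6 and 40.6 CPM after treatment (log2 fold-change -0.28 ± 0.08 SE, adjusted p = 0.26), and was lower in all 3 experiments without passing the test. Its partner *ARNT* had a log2 fold-change of 0.09 ± 0.10, adjusted p = 0.87.

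**Figure D2:**
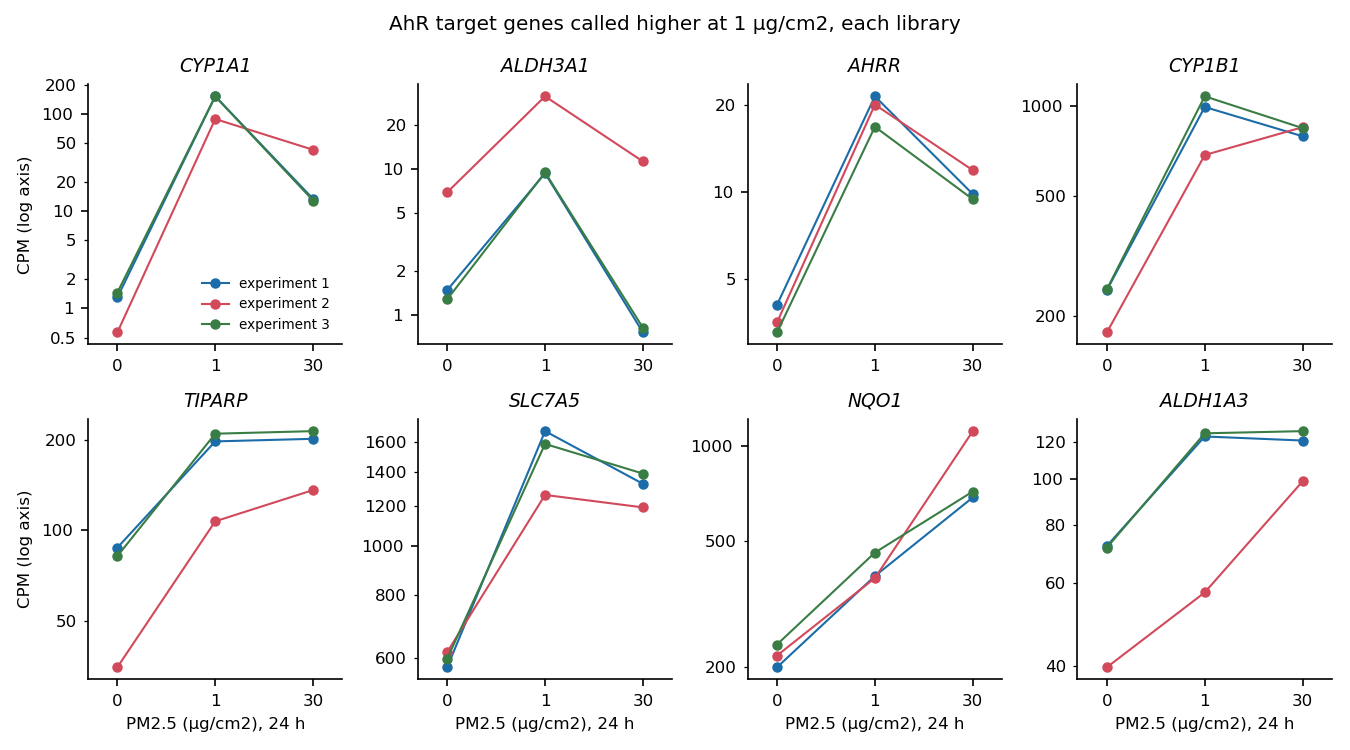
Expression in CPM on a log axis of the 8 AhR target genes called higher at 1 µg/cm2, in every 24-h library at 0, 1 and 30 µg/cm2, with 1 line per experiment. Every line rises from 0 to 1 µg/cm2, and from 1 to 30 µg/cm2 the lines of *CYP1A1*, *ALDH3A1* and *AHRR* fall while those of *NQO1* rise.

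Of the 74 called genes, 65 are protein-coding, 5 are long noncoding RNAs and 3 are transcribed pseudogenes, and 1 was not in the annotation used. All 5 noncoding RNAs rose. *LINC00886* was at 2.17, 2.83 and 2.16 CPM in the controls and 5.47, 7.88 and 5.87 CPM after 1 µg/cm2 (log2 fold-change 1.41 ± 0.15 SE, adjusted p = 0.0013). It lies on chromosome 3, on the strand opposite to *TIPARP* and with 40575 bases between them. *GCAWKR* was at 11.8, 10.6 and 10.5 CPM and then 23.02, 20.7 and 20.9 CPM (log2 fold-change 0.97 ± 0.11 SE, adjusted p = 0.0020), and lies on chromosome 15 with 12256 bases between it and *ALDH1A3*, on the same strand. It shares exon sequence with 2 unnamed genes on its strand. These are the only pairs of called genes within 100000 bases apart from *CYP1B1* and *CYP1B1-AS1*, whose spans overlap. *CYP1B1-AS1* was at 0.843, 0.565 and 0.709 CPM and then 3.37, 0.991 and 1.69 CPM (log2 fold-change 1.46 ± 0.27 SE, adjusted p = 0.033). Since the strand used in counting is not given in the sources used here, these reads and those of *CYP1B1* cannot be told apart. *LINC00511* was at 19.2, 23.9 and 20.6 CPM and then 39.7, 59.2 and 42.3 CPM (log2 fold-change 1.12 ± 0.13 SE, adjusted p = 0.0025). *LINC00900* held 1 count or none in each control and 0.816, 0.843 and 0.211 CPM after treatment (adjusted p = 0.028). Its mean after treatment was 5.53-fold the mean floor of 3 counts per control library. The treated library of experiment 3 held only 6 counts. Without the block the adjusted p of *LINC00900* by edgeR was 0.13. *GCAWKR* and *CYP1B1-AS1* were chosen after their values were seen.

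Of 33 NRF2 target genes, which act against oxidants, all were tested, 5 rose and none fell. The median log2 fold-change was 0.34, and 30 of the 33 lay above 0. None of the 5 was called by edgeR without the block, where 534 of all tested genes had an unadjusted p under 0.05, and 13 of the list were called without experiment 2. At an unadjusted p under 0.05 with the block, 15 of the list passed, against 8.74% of tested genes, and DESeq2 called 7. *FTL*, the light chain of ferritin, was at 1065, 1989.8 and 1288 CPM in the controls and 2211, 4029.5 and 2469 CPM after 1 µg/cm2 (log2 fold-change 1.003 ± 0.15 SE, adjusted p = 0.010), with no overlap. *FTL* has many pseudogenes, so its count is uncertain. *NMRAL2P*, a transcribed pseudogene known as an NRF2 target, was at 0.512, 0.518 and 0.3897 CPM and then 1.700, 0.942 and 1.65 CPM (log2 fold-change 1.62 ± 0.28 SE, adjusted p = 0.024). *TRIM16L* was at 8.82, 8.99 and 8.86 CPM and then 21.3, 14.3 and 23.6 CPM (log2 fold-change 1.16 ± 0.20 SE, adjusted p = 0.024). *PIR* (pirin, an iron-binding nuclear protein) was at 26.2, 52.2 and 31.8 CPM and then 47.3, 74.1 and 57.3 CPM (log2 fold-change 0.74 ± 0.12 SE, adjusted p = 0.013), and its groups overlapped, the control of experiment 2 being above the treated library of experiment 1. *NQO1* is the fifth. Familiar members of the pathway did not pass. *HMOX1*, heme oxygenase, had a log2 fold-change of 0.48 ± 0.26, adjusted p = 0.66. *TXNRD1*, thioredoxin reductase, had 0.68 ± 0.17, adjusted p = 0.17, with 358, 279 and 361 CPM in the controls and 721, 274 and 767 CPM after treatment, higher in experiments 1 and 3 and not in experiment 2. *SLC7A11*, the cystine transporter, had 0.78 ± 0.44, adjusted p = 0.68, and *GCLM*, of glutathione synthesis, had 0.44 ± 0.12, adjusted p = 0.22.

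Of 26 ATF4 target genes, which supply amino acids and respond to stress of the endoplasmic reticulum, 2 rose, *SLC7A5* and *SLC3A2*. The median log2 fold-change of the list was 0.36, with 24 of the 26 above 0. The 2 genes encode both chains of 1 transporter. *SLC3A2* was at 358, 707 and 417 CPM in the controls and 698, 1381 and 737 CPM after treatment (log2 fold-change 0.92 ± 0.14 SE, adjusted p = 0.012), and the control of experiment 2 was about as high as the treated libraries of the other experiments. *CHAC1*, which degrades glutathione, was at 5.03, 108 and 6.16 CPM and then 31.3, 176 and 32.4 CPM, and did not pass (log2 fold-change 1.56 ± 0.57 SE, adjusted p = 0.42). *ASNS*, asparagine synthetase, had a log2 fold-change of 0.62 ± 0.28, adjusted p = 0.57, and *STC2* had 0.67 ± 0.16, adjusted p = 0.13. Without the block 1 gene of the list was called, and without experiment 2 9 were.

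The remaining large rises belonged to no single pathway on the lists. *DHRS3*, which reduces retinal to retinol, was at 1.66, 10.5 and 2.98 CPM in the controls and 12.3, 23.3 and 14.3 CPM after 1 µg/cm2 (log2 fold-change 2.003 ± 0.23 SE, adjusted p = 0.0021). *BMF*, which promotes apoptosis by binding BCL2 proteins, was at 8.73, 46.1 and 8.54 CPM and then 39.1, 96.02 and 40.1 CPM (log2 fold-change 1.81 ± 0.20 SE, adjusted p = 0.0018). In both genes the control of experiment 2 was well above the other controls. *ADAMTS15*, a secreted protease of proteoglycans, was at 10.5, 30.6 and 10.3 CPM and then 52.8, 41.99 and 47.4 CPM (log2 fold-change 1.76 ± 0.33 SE, adjusted p = 0.037). *CCN5*, a secreted protein of the matrix, was at 1.69, 7.68 and 1.098 CPM and then 5.78, 14.2 and 5.55 CPM (log2 fold-change 1.59 ± 0.27 SE, adjusted p = 0.021). *NPTX1*, a secreted pentraxin known from neurons, was at 0.783, 0.471 and 1.42 CPM and then 5.68, 1.14 and 6.08 CPM (log2 fold-change 2.23 ± 0.32 SE, adjusted p = 0.0087). The groups overlapped in both, since the control of experiment 2 was above the other treated libraries for *CCN5*, and the treated library of experiment 2 was below the control of experiment 3 for *NPTX1*. *RCAN2*, a regulator of calcineurin, was scarce, at 0.151, 0.235 and 0.283 CPM and then 0.8500, 1.29 and 1.33 CPM (log2 fold-change 2.36 ± 0.42 SE, adjusted p = 0.029). *STUM* was scarce as well, at 0.0602, 0.471 and 0.0709 CPM and then 0.782, 1.98 and 0.492 CPM (adjusted p = 0.042), with 2 counts in the control of experiments 1 and 3. *ARTN*, a ligand of the GDNF family, was at 4.21, 3.63 and 4.57 CPM and then 12.2, 8.43 and 10.7 CPM (log2 fold-change 1.33 ± 0.23 SE, adjusted p = 0.020).

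Of 15 integrin genes, only *ITGA11*, whose product binds collagen, was called. It was at 1.69, 1.08 and 1.81 CPM in the controls and 7.04, 3.52 and 6.53 CPM after 1 µg/cm2 (log2 fold-change 1.88 ± 0.28 SE, adjusted p = 0.010), with no overlap, while the median of the list was -0.12. Of 22 tested WNT genes, 2 rose and 1 fell. *NKD2*, an inhibitor of WNT signalling inside the cell, was at 0.211, 0.283 and 0.461 CPM and then 1.16, 1.54 and 1.26 CPM (log2 fold-change 2.05 ± 0.36 SE, adjusted p = 0.024). The ligand *WNT9A* was at 7.65, 9.37 and 7.19 CPM and then 17.1, 12.3 and 15.8 CPM (log2 fold-change 0.90 ± 0.16 SE, adjusted p = 0.030). *SFRP1*, a secreted WNT inhibitor, was at 44.98, 25.003 and 46.8 CPM and then 24.4, 16.8 and 26.4 CPM (log2 fold-change -0.77 ± 0.12 SE, adjusted p = 0.011). *DKK1*, another secreted inhibitor, did not pass (log2 fold-change -0.95 ± 0.19 SE, adjusted p = 0.054). Without the block 1 of the WNT genes was called, and without experiment 2 7 were.

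Of 27 cytokines and chemokines, 22 were tested, 2 rose and none fell, with a median log2 fold-change of -0.14. *IL24*, a cytokine of the IL-10 family, was at 0.813, 0.753 and 0.744 CPM in the controls and 2.62, 2.38 and 2.77 CPM after treatment (log2 fold-change 1.77 ± 0.31 SE, adjusted p = 0.025). *IL1B* was at 1.596, 0.753 and 2.05 CPM and then 3.400, 2.33 and 4.92 CPM (log2 fold-change 1.27 ± 0.21 SE, adjusted p = 0.018). Both were scarce, and in both the groups did not overlap. *IL1A* had a log2 fold-change of 0.82 ± 0.18, adjusted p = 0.081. The neutrophil chemoattractant *CXCL8* had -1.04 ± 0.31, adjusted p = 0.27, and *IL6* had -1.30 ± 0.36, adjusted p = 0.23. *IL6* was at 2.62, 0.706 and 2.23 CPM and then 0.5100, 0.843 and 0.913 CPM, lower in experiments 1 and 3 and not in experiment 2. *TNF* held no count in the 6 libraries. Neither gene was called without the block, and without experiment 2 10 of the list were.

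Of 41 tested genes on the extracellular matrix list, 5 fell and none rose, with a median log2 fold-change of -0.17 for the list. The secreted *CCN5* and *ADAMTS15*, which rose, are not on this list. *COL8A1*, a short-chain collagen, was at 1133, 298 and 1057 CPM in the controls and 436, 186 and 436 CPM after 1 µg/cm2 (log2 fold-change -1.15 ± 0.21 SE, adjusted p = 0.032). *EFEMP1*, the fibulin-type glycoprotein, was at 1267, 862 and 1357 CPM and then 527, 545 and 602 CPM (log2 fold-change -1.05 ± 0.13 SE, adjusted p = 0.0039). *SMOC1*, a calcium-binding matrix protein, was at 63.3, 40.9 and 69.5 CPM and then 20.4, 23.1 and 21.7 CPM (log2 fold-change -1.40 ± 0.18 SE, adjusted p = 0.0047). *LOX*, which crosslinks collagen and elastin, was at 98.4, 72.4 and 102 CPM and then 51.03, 46.2 and 52.998 CPM (log2 fold-change -0.86 ± 0.12 SE, adjusted p = 0.0087). The groups did not overlap in *EFEMP1*, *SMOC1* and *LOX*, and these were the 3 of the list still called without the block, while 6 were called without experiment 2. In *COL8A1* the control of experiment 2 lay below the treated libraries of the other experiments. The fibrillar collagens *COL1A1* and *COL1A2* had log2 fold-changes of -0.03 and -0.09 (adjusted p = 0.99 and 0.95), and *FN1*, fibronectin, had -0.37 ± 0.14, adjusted p = 0.43.

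Of 20 target genes of YAP and TEAD, the factors that sense cell spreading, 18 had a log2 fold-change below 0, and the median was -0.36. Of the 20, 1 fell by the test, and 13 had an unadjusted p under 0.05, against 8.74% of tested genes. *ANKRD1* was at 21.1, 5.603 and 22.5 CPM in the controls and 4.28, 3.37 and 5.51 CPM after treatment (log2 fold-change -1.77 ± 0.26 SE, adjusted p = 0.0087). *CCN2*, connective tissue growth factor, was at 311, 31.2 and 346 CPM and then 46.3, 24.04 and 56.2 CPM, and did not pass (log2 fold-change -2.18 ± 0.43 SE, adjusted p = 0.052). Its level in the control of experiment 2 was already below those of the other experiments after treatment. *CRIM1* passed the p threshold at a log2 fold-change of -0.44 ± 0.08, adjusted p = 0.041, short of 0.6. None of this list was called without the block, and 5 were without experiment 2.

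Of 27 tested immediate early genes and feedback inhibitors of ERK, the kinase downstream of growth factor receptors, 23 had a log2 fold-change below 0, and the median was -0.32. Of the 27, 1 fell by the test, and 11 had an unadjusted p under 0.05, against 8.74% of tested genes. *SPRY2*, which restrains ERK signalling, was at 58.6, 23.6 and 58.1 CPM in the controls and 28.3, 15.4 and 31.7 CPM after treatment (log2 fold-change -0.86 ± 0.13 SE, adjusted p = 0.012). *DUSP6*, the ERK phosphatase, was at 23.03, 2.07 and 27.5 CPM and then 5.88, 2.48 and 6.08 CPM, and did not pass (log2 fold-change -1.67 ± 0.38 SE, adjusted p = 0.10). *DUSP5* had a log2 fold-change of -1.18 ± 0.24, adjusted p = 0.064, *DUSP4* -1.05 ± 0.25, adjusted p = 0.14 and *DUSP1* -0.76 ± 0.15, adjusted p = 0.054. Without experiment 2, 11 members were called, and without the block none. In the control of experiment 2, *DUSP6* was below each of the treated libraries.

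Of 36 interferon-stimulated genes, 1 fell, 16 lay above 0 and the median was -0.03. *IFI44* was at 24.1, 18.1 and 24.4 CPM in the controls and 12.8, 9.02 and 12.5 CPM after 1 µg/cm2 (log2 fold-change -0.96 ± 0.11 SE, adjusted p = 0.0019), lower by a like amount in the 3 experiments. *OASL*, which is induced by interferon and by viral RNA, had a log2 fold-change of -1.10 ± 0.24, adjusted p = 0.089, and *RSAD2* had -0.93 ± 0.25, adjusted p = 0.20. Without the block edgeR called 0 of the list, *IFI44* having an adjusted p of 0.096, and without experiment 2 it called 4. With the block, 8 had an unadjusted p under 0.05, against 8.74% of tested genes, and DESeq2 called 2.

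Other large falls lay outside these pathway lists. *DMBT1*, a secreted scavenger receptor of mucosa, was at 9.63, 0.8005 and 8.89 CPM in the controls and 1.36, 0.446 and 1.83 CPM after treatment (log2 fold-change -2.28 ± 0.32 SE, adjusted p = 0.0087), and the control of experiment 2 was below 1 CPM. *GDF6*, a ligand of the BMP family, was at 14.96, 5.32 and 13.4 CPM and then 5.98, 1.74 and 6.15 CPM (log2 fold-change -1.29 ± 0.20 SE, adjusted p = 0.012). *PCDH18*, a protocadherin, was at 21.1, 23.4 and 21.8 CPM and then 9.18, 11.3 and 10.4 CPM (log2 fold-change -1.11 ± 0.16 SE, adjusted p = 0.0087), with no overlap. *KCNJ2*, an inward-rectifier potassium channel, was at 20.3, 6.97 and 19.2 CPM and then 8.53, 4.91 and 8.43 CPM (log2 fold-change -1.03 ± 0.18 SE, adjusted p = 0.021). *CYP4B1*, a monooxygenase of the lung that is not an AhR target of the list, was at 8.01, 20.5 and 9.57 CPM and then 3.88, 11.3 and 4.28 CPM (log2 fold-change -1.02 ± 0.15 SE, adjusted p = 0.010). *ABI3BP*, a protein of the matrix, was at 24.5, 10.2 and 21.5 CPM and then 12.9, 4.31 and 12.4 CPM (log2 fold-change -0.97 ± 0.12 SE, adjusted p = 0.0039). In *KCNJ2*, *CYP4B1* and *ABI3BP*, the groups overlapped, and the treated library was the lower in each experiment. Exons of *KCNJ2* overlap *KCNJ2-AS1*.

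*PDE4B*, a phosphodiesterase that degrades cyclic AMP, was at 3.97, 5.32 and 3.86 CPM and then 2.28, 2.92 and 1.93 CPM (log2 fold-change -0.89 ± 0.17 SE, adjusted p = 0.041), and its relative *PDE4D* was at 96.5, 85.9 and 83.7 CPM and then 51.5, 50.7 and 52.01 CPM (log2 fold-change -0.79 ± 0.13 SE, adjusted p = 0.018). Both were lower in every treated library than in every control. *TNNT2*, a troponin of the contractile apparatus, was at 19.9, 68.04 and 21.2 CPM and then 8.67, 49.6 and 9.096 CPM (log2 fold-change -0.94 ± 0.15 SE, adjusted p = 0.013). *POLR1G*, a subunit of RNA polymerase I, was at 8.58, 5.37 and 11.2 CPM and then 4.05, 4.26 and 5.06 CPM (log2 fold-change -0.90 ± 0.17 SE, adjusted p = 0.045). Exons of *TNNT2* overlap *LAD1*, and those of *POLR1G* overlap *PPP1R13L* and *ERCC1*, so their counts are uncertain. The junction protein *CLDN1* was the 1 epithelial marker of 13 that was called, at 73.7, 51.4 and 79.2 CPM and then 37.7, 43.8 and 42.7 CPM (log2 fold-change -0.69 ± 0.13 SE, adjusted p = 0.043).

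**Figure D3:**
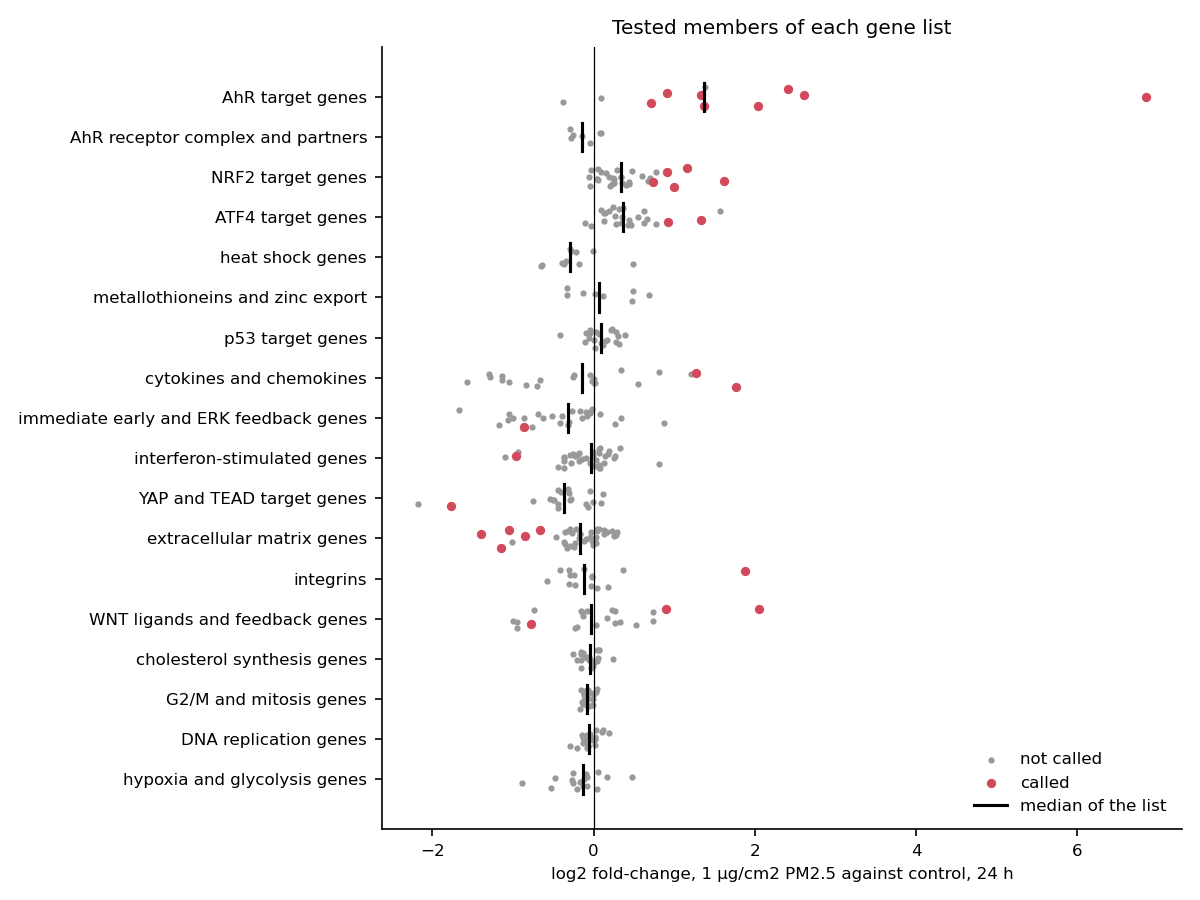
Log2 fold-change at 1 µg/cm2 of PM2.5 against control at 24 h (x axis) of every tested member of 18 gene lists (rows), with called genes in red, other genes in grey and the median of each list as a black bar. The AhR target genes lie to the right with a median of 1.37, and the genes of mitosis, replication and cholesterol synthesis lie close to 0.

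Several responses were not detected at this concentration. Of 11 tested heat shock genes, 21 p53 target genes, 8 metallothionein and zinc export genes, 17 genes of hypoxia and glycolysis, 22 of cholesterol synthesis, 25 of G2 and mitosis and 24 of DNA replication, edgeR called 0, with and without the block, as did DESeq2. At an unadjusted p under 0.05, 2 heat shock genes, 2 p53 target genes, 4 hypoxia genes and 2 replication genes passed, against 0 in the other 3 lists. Of all tested genes 8.74% passed at that p. Without experiment 2, 1 heat shock gene, 1 metallothionein gene, 2 p53 target genes and 2 hypoxia genes were called, and 0 of the other lists. Of all 17950 genes tested in that fit, 590 were called. The median log2 fold-change was -0.29 for the heat shock genes, with 10 of the 11 below 0, and 0.09 for the p53 targets. It was -0.08 for the genes of mitosis, -0.06 for those of replication and -0.05 for those of cholesterol synthesis. *CDKN1A*, the p53 target that halts the cell cycle, had a log2 fold-change of 0.21 ± 0.20, adjusted p = 0.84. *HSPA8*, a chaperone of the HSP70 family, had -0.64 ± 0.31, adjusted p = 0.60, at 2917, 831 and 3331 CPM in the controls and 1681, 729 and 1945 CPM after treatment. *MT2A*, the most abundant metallothionein, had -0.13 ± 0.32, adjusted p = 0.96.

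The study itself chose 2 lists on these libraries, which are therefore not independent of the comparison. Of 40 genes listed for the low concentration by a likelihood ratio test, 37 were tested here. The quasi-likelihood test, which is stricter, called 18 higher and 7 lower. With the same block and thresholds, a likelihood ratio test called 36 of the 37 and DESeq2 33. The 12 that were not called by the quasi-likelihood test included *RUNX2* (log2 fold-change 1.46 ± 0.29 SE, adjusted p = 0.053), a transcription factor of bone, and *SLITRK6* (log2 fold-change -1.87 ± 0.38 SE, adjusted p = 0.054). *TSC22D1* passed the p threshold at a log2 fold-change of -0.59 ± 0.08, adjusted p = 0.0074. Without the block 10 of the 37 were called, and without experiment 2 all 37 were. Of 13 tested genes listed as opposite at the 2 concentrations, 1 (*BMF*) was called higher and 1 lower at 1 µg/cm2, and 12 were called without experiment 2.

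The 3 experiments did not contribute alike. The smallest change was that of experiment 2 in 28 of the 43 genes that rose and had a count in every control, and in 22 of the 30 that fell. The median log2 ratio of treated to control CPM among the genes that rose was 1.18, 0.97 and 1.25 in experiments 1, 2 and 3. Among those that fell it was -0.92, -0.67 and -0.90. In *CYP1A1*, the ratio was 118, 157 and 105, largest in experiment 2. In *AHRR* it was 5.28, 5.68 and 5.16, and in *CYP1B1* 4.06, 3.89 and 4.38. The ratios of *AHRR* and *CYP1B1* were alike in the 3 experiments. In *ADAMTS15* the ratio was 5.01, 1.37 and 4.58. In *DHRS3* it was 7.41, 2.22 and 4.803, and in *ANKRD1* 0.203, 0.602 and 0.245. In these 3 genes experiment 2 had the same direction and a smaller size. Without experiment 2, the log2 fold-change was 6.80 for *CYP1A1*, 2.27 for *ADAMTS15*, 2.55 for *DHRS3* and -2.15 for *ANKRD1*.

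**Figure D4:**
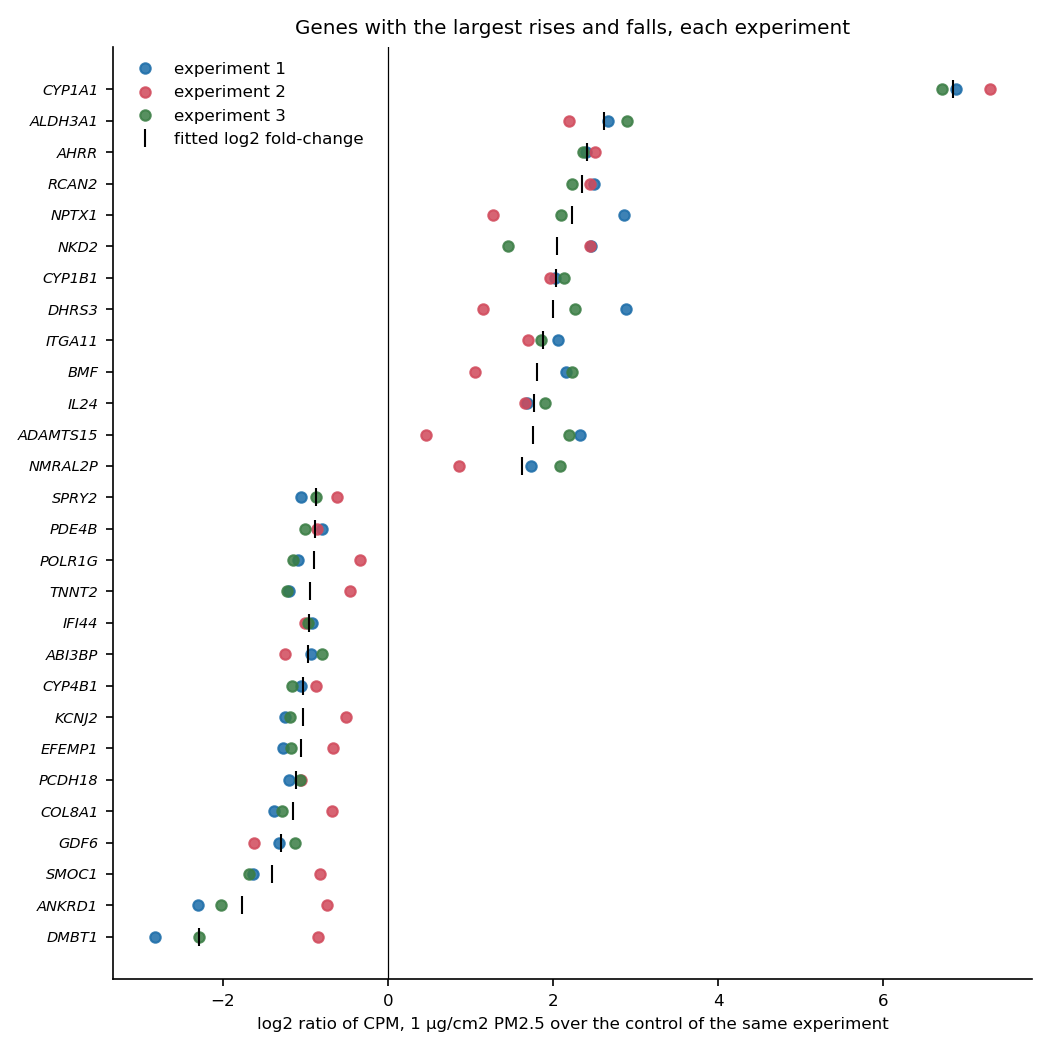
Log2 ratio of CPM at 1 µg/cm2 over the control of the same experiment (x axis) for 28 of the 30 genes with the largest rises and falls (rows), with 1 coloured point per experiment and a black tick for the fitted value. *LINC00900* and *STUM* are left out because a control held 3 counts or fewer, and the points of experiment 2 lie nearer 0 than the others in *ADAMTS15*, *DHRS3*, *ANKRD1* and *DMBT1*.

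The response at 1 µg/cm2 was next set beside that at 30 µg/cm2, which shares the 3 controls, and the difference between the treated groups was tested directly. In this test 15.6% of all tested genes passed both thresholds. Among the AhR target genes, *CYP1A1* was at 13.4, 42.9 and 12.9 CPM at 30 µg/cm2, against 152, 88.9 and 152 CPM at 1 µg/cm2, and the difference was -2.63 ± 0.44, adjusted p = 6.7e-04. *ALDH3A1* was at 0.756, 11.3 and 0.814 CPM at 30 µg/cm2, below the controls in experiments 1 and 3 (difference -2.52 ± 0.32, adjusted p = 1.0e-04). *AHRR* was at 9.83, 11.9 and 9.43 CPM (difference -0.90 ± 0.16, adjusted p = 0.0010). These 3 genes were lower at the higher concentration in every experiment. *NQO1* was higher, at 687, 1112 and 717 CPM (difference 1.01 ± 0.15, adjusted p = 2.7e-04). For *CYP1B1* the difference was -0.12 ± 0.13, adjusted p = 0.54, and for *TIPARP* 0.14 ± 0.11, adjusted p = 0.38. It was -0.21 ± 0.11, adjusted p = 0.15 for *SLC7A5* and 0.26 ± 0.13, adjusted p = 0.16 for *ALDH1A3*. These 4 did not pass. *LINC00886* was at 2.07, 3.33 and 2.73 CPM at 30 µg/cm2, near its control level (difference -1.25 ± 0.15, adjusted p = 6.3e-05).

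Some called genes moved in opposite directions. *BMF* was at 1.48, 8.01 and 2.01 CPM at 30 µg/cm2, below each control (log2 fold-change 1.81 at 1 and -2.38 at 30 µg/cm2, difference -4.18 ± 0.24, adjusted p = 5.0e-07). *CCN5* was at 0.263, 1.28 and 0.239 CPM at 30 µg/cm2 (1.59 and -2.44, difference -4.03 ± 0.34, adjusted p = 5.5e-06). *ADAMTS15* was at 2.83, 12.3 and 3.16 CPM (1.76 and -1.53, difference -3.28 ± 0.36, adjusted p = 3.8e-05). In these 3 genes the direction held in each experiment at both concentrations. *RCAN2* was at 0.0329, 0.277 and 0.0479 CPM and *STUM* at 0.0329, 0.347 and 0.000 CPM at 30 µg/cm2, near the controls or below them (difference -3.23 ± 0.47, adjusted p = 2.9e-04 for *RCAN2*). *NMRAL2P*, *IL24* and *FTL* rose further, with differences of 3.62 ± 0.20, adjusted p = 5.0e-07 for *NMRAL2P*, 2.57 ± 0.24, adjusted p = 1.2e-05 for *IL24* and 1.83 ± 0.15, adjusted p = 5.3e-06 for *FTL*. *FTL* reached 9014, 11391 and 9475 CPM at 30 µg/cm2. *DMBT1*, at 4.87, 1.39 and 4.21 CPM, lay between the control and 1 µg/cm2 in experiments 1 and 3 and above both in experiment 2 (difference 1.61 ± 0.33, adjusted p = 0.0030).

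The repeated protocol, with separate libraries and controls, gave fold-changes for the same genes. Its libraries were in the same fit and helped to set the filter and the spread behind the calls at 24 h. The calls of the 2 protocols are therefore not independent. Of the 44 genes that rose at 24 h, 35 had a positive log2 fold-change after daily exposure, as 50.8% of tested genes did, and 11 were called higher, against 1.60% of tested genes (4.39% in both directions). These were *CYP1A1*, *CYP1B1*, *AHRR*, *TIPARP*, *LINC00886*, *GCAWKR*, *LINC00511*, *IL24*, *NMRAL2P*, *ARTN* and *CYSRT1*. Of the 30 that fell, 26 had a negative value, as 49.2% of tested genes did, and 8 were called lower, against 2.79%. These were *CYP4B1*, *PDE4B*, *ABI3BP*, *PCDH18*, *LOX*, *DOCK4*, *SFRP1* and *KCNJ2*. None was called in the opposite direction. *CYSRT1* and *DOCK4* are named here after their values were seen. The absolute log2 fold-change was smaller after daily exposure in 43 of the 44 and 28 of the 30, and its median was 0.42 against 1.26 among the genes that rose and -0.46 against -0.86 among those that fell. The genes had been called on their size at 24 h, so these sizes are given as a description.

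*CYP1A1* was at 2.89, 2.76 and 0.941 CPM in the controls of the repeated protocol and 32.2, 30.5 and 32.1 CPM after daily exposure (log2 fold-change 3.90 ± 0.50 SE, adjusted p = 0.0021). *CYP1B1* was at 78.9, 84.9 and 74.5 CPM and then 208, 203 and 244 CPM (log2 fold-change 1.46 ± 0.14 SE, adjusted p = 0.0012). *AHRR* was at 6.54, 6.75 and 3.98 CPM and then 13.9, 14.9 and 15.9 CPM (log2 fold-change 1.40 ± 0.17 SE, adjusted p = 0.0015). In each of these, all treated libraries lay above all controls. *LINC00886* had nearly the same log2 fold-change as at 24 h, at 2.55, 2.51 and 2.13 CPM and then 6.22, 5.81 and 6.05 CPM (log2 fold-change 1.33 ± 0.15 SE, adjusted p = 0.0012), and the difference from the response at 24 h was -0.08 ± 0.21, adjusted p = 0.86. *PCDH18* was at 23.2, 23.9 and 22.9 CPM and then 10.7, 11.3 and 20.2 CPM (log2 fold-change -0.79 ± 0.16 SE, adjusted p = 0.011). *DHRS3* was at 11.4, 11.1 and 11.1 CPM and then 12.7, 12.02 and 11.3 CPM (log2 fold-change 0.10 ± 0.21 SE, adjusted p = 0.81), and *BMF* at 10.6, 10.6 and 9.79 CPM and then 10.99, 12.4 and 15.1 CPM (log2 fold-change 0.30 ± 0.20 SE, adjusted p = 0.35). Both had been among the largest rises at 24 h, and the test of the difference between the responses passed for each, at -1.91 ± 0.31, adjusted p = 0.039 for *DHRS3* and -1.51 ± 0.29, adjusted p = 0.047 for *BMF*. None of the 181 genes that passed this test (1.03%) did so without the block or without the control of experiment 1, where edgeR left 1245 and 2450 genes at an unadjusted p under 0.05. DESeq2 called 576 with the block. For *CYP1A1* that difference was -2.95 ± 0.77, adjusted p = 0.079. The protocols differ in plating density, in washing and in time as well as in the number of exposures, and these cannot be told apart.

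**Figure D5:**
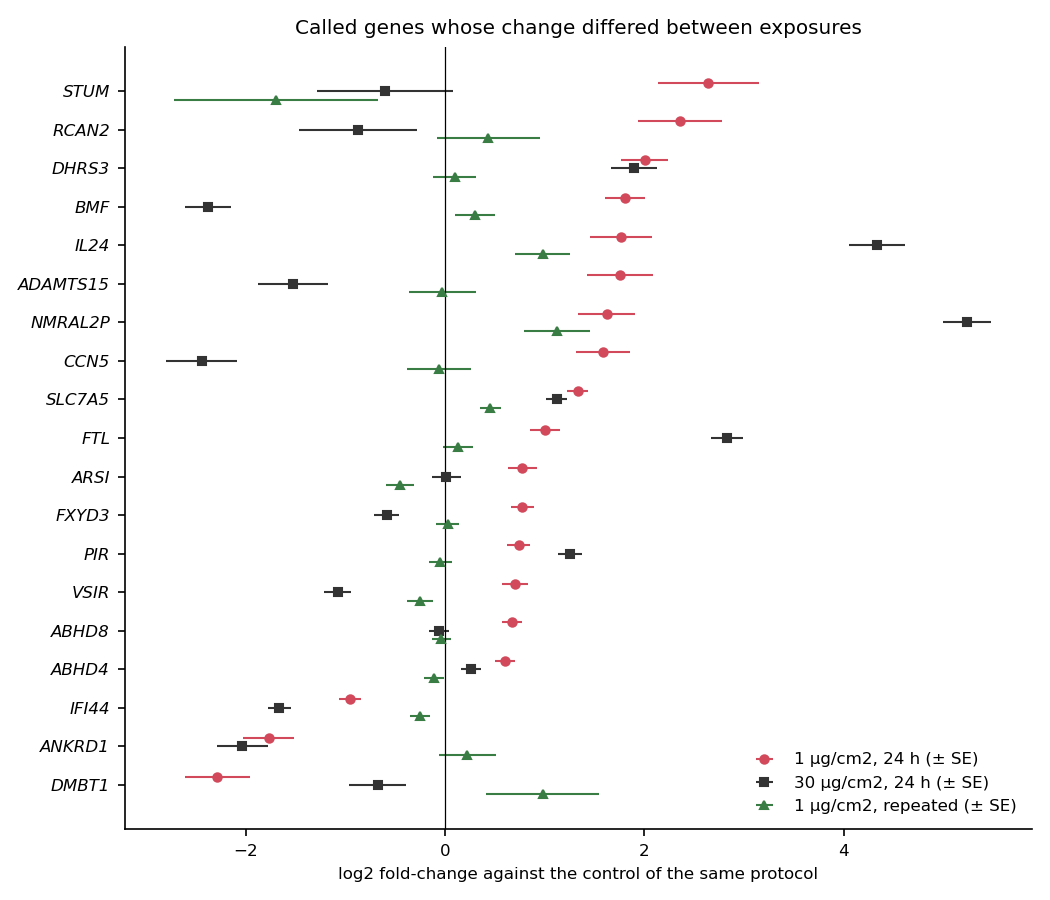
Log2 fold-change with its SE against the control of the same protocol (x axis) at 1 µg/cm2 for 24 h, at 30 µg/cm2 for 24 h and after repeated 1 µg/cm2, for 19 called genes (rows) with the largest differences between concentrations or a difference between single and repeated exposure. *BMF*, *CCN5*, *ADAMTS15*, *VSIR* and *FXYD3* are above 0 at 1 µg/cm2 and below it at 30 µg/cm2. So are *RCAN2*, *STUM* and *ABHD8*, whose falls at 30 µg/cm2 did not pass the test.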

How the data were processed

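RNA-Seq was carried out on poly(A) RNA of BEAS-2B cells with single-end reads of 50 bases. The authors aligned the reads with STAR (version 2.5.3 in the methods) and deposited raw read counts per gene from featureCounts, with Ensembl identifiers and coordinates, in 1 table of 58219 genes and 15 libraries. The submitters' processing notes name hg19 and the study methods GRCh38, and the coordinates in the table are those of GRCh38. The annotation release and the strand setting are not given in the sources used here. All columns were matched to a sample by name, 0 were left unmatched, and 57437 genes were given a symbol.

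From these counts, edgeR 4.0.16 (R 4.3.3) fitted its quasi-likelihood test to all 15 libraries and 5 conditions after the default filter by condition and TMM normalization. The replicate number within each protocol was a block of 6 levels, leaving 6 residual degrees of freedom, because the series record says that this number marks the experimental batch. The deviations of same-numbered control and treated libraries from their group means correlated at 0.668, 0.677 and 0.353 across 17599 genes, against -0.683 to 0.421 for different numbers. The value of experiment 3 lay within the range of different numbers. Deviations from a group mean sum to 0 within the group, which pushes the values of different numbers down. These correlations therefore do not decide how the libraries pair. CPM values are counts scaled by the TMM-normalized library size. A call needs a p below 0.05 after Benjamini-Hochberg adjustment and a log2 fold-change of 0.6 or more in size. Simulated counts for the comparison of 1 µg/cm2 with control held 17239 genes, 200 of them changed. The fit recovered 74%, 90%, 96% and 96% of genes changed by 0.8, 1.2, 1.6 and 2 on the log2 scale. It made 4 false calls. Recovery of genes that respond less in 1 experiment, as many called genes did in experiment 2, was not tested.

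The genes named are the members of the lists where a list is described, the 15 largest rises and 15 largest falls, the 5 largest and 5 smallest differences between concentrations, and those that passed the test of single against repeated exposure. The comparison, lists and genes were chosen with earlier results of these data known. The 3 experiments were independent runs of 1 line. With the block, p-values rest on the spread left after the level of each experiment is removed, pooled over all 15 libraries. Exon overlaps came from the coordinates in the deposited table. Promoters came from RefSeq and gene types from the gene annotation of GRCh38.p14. Alternatives covered the block, the libraries fitted, normalization, filters, DESeq2 1.42.0, the likelihood ratio test and each of the 6 libraries of the comparison left out. Methylation data were not analysed here, and 1 called gene is not reported here by name.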

Additional observations from a re-analysis of the deposited data

Results flagged for a closer look

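For 12 of the 74 genes called at 24 h, the response to repeated exposure to 1 µg/cm2 differed from that to the single exposure by a test of the difference itself (edgeR's quasi-likelihood test, adjusted p from 0.039 to 0.049 over all tested genes). Of all 17599 tested genes, 181 passed this test (1.03%). The 74 had been called on their size at 24 h, and that size enters the difference. Their share and the smaller sizes after repeated exposure are therefore given as a description. Values are repeated minus single. The 9 genes that had risen at 24 h had smaller responses after repeated exposure. *DHRS3*, the retinal reductase, had a log2 fold-change of 2.003 after the single and 0.10 after the repeated exposure, a difference of -1.91 ± 0.31 SE. *BMF* had a log2 fold-change of 1.81 after the single and 0.30 after the repeated exposure, a difference of -1.51 ± 0.29 SE. *SLC7A5* had a log2 fold-change of 1.33 after the single and 0.46 after the repeated exposure, a difference of -0.88 ± 0.15 SE. *PIR* had a log2 fold-change of 0.74 after the single and -0.05 after the repeated exposure, a difference of -0.79 ± 0.17 SE. *VSIR*, an immune checkpoint protein, had a log2 fold-change of 0.70 after the single and -0.25 after the repeated exposure, a difference of -0.95 ± 0.18 SE. *ARSI*, a sulfatase, had a log2 fold-change of 0.78 after the single and -0.45 after the repeated exposure, a difference of -1.22 ± 0.20 SE. *FXYD3*, a regulator of the sodium pump, had a log2 fold-change of 0.78 after the single and 0.03 after the repeated exposure, a difference of -0.75 ± 0.16 SE. *ABHD8* had a log2 fold-change of 0.67 after the single and -0.04 after the repeated exposure, a difference of -0.71 ± 0.14 SE. *ABHD4* had a log2 fold-change of 0.60 after the single and -0.11 after the repeated exposure, a difference of -0.71 ± 0.14 SE.

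The 3 genes that had fallen at 24 h had values nearer 0 or above it after repeated exposure. *IFI44* had a log2 fold-change of -0.96 after the single and -0.25 after the repeated exposure, a difference of 0.70 ± 0.15 SE. *ANKRD1* had a log2 fold-change of -1.77 after the single and 0.22 after the repeated exposure, a difference of 1.99 ± 0.38 SE. *DMBT1* had a log2 fold-change of -2.28 after the single and 0.98 after the repeated exposure, a difference of 3.26 ± 0.65 SE. The controls of the repeated protocol also started elsewhere for several of these genes, since *DMBT1* was at 0.129 to 0.228 CPM in them against 0.800 to 9.63 CPM in the 24-h controls. None of the 12 differences passed without the block, and the 2 protocols cannot be told apart from the number of exposures.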

How the results depend on the processing

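The count of genes called at 1 µg/cm2 depended on the handling of experiment and on the libraries fitted. Against 74 genes, the fit without the replicate block gave 11, and the 9 libraries of the 24-h protocol and the 6 libraries of the comparison alone gave 25 and 20. No filter on low counts gave 262, the likelihood ratio test 175, DESeq2 116 and a test against a fold of 1.5 gave 9. Leaving out experiment 1, 2 or 3 gave 11, 590 and 15. Leaving out 1 of the 6 control and 1 µg/cm2 libraries gave 14 (treated, experiment 1) to 410 (control, experiment 2). Chosen after the data were seen, a likelihood ratio test without the replicate block gave 34, and no block together with no experiment 2 gave 378. RLE and upper quartile normalization, a filter at 1 CPM, the current and robust modes of edgeR and the adjusted p alone gave 74 to 83. *AHRR*, *CYP1A1*, *CYP1B1*, *LINC00886* and *SLC7A5* were called in all 23 alternatives, and no call changed direction in any. The cause of these differences was not tested.

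The difference between 30 and 1 µg/cm2 was called for 2737 genes and for 1379 without the replicate block, and for 2180 to 2977 with 1 of the same 6 libraries left out. No library of 30 µg/cm2 or of the repeated protocol was left out. The difference between single and repeated responses was called for 181 genes. Without the replicate block the quasi-likelihood test gave 0, with 1245 genes at an unadjusted p under 0.05. No filter on low counts gave 922, the likelihood ratio test 798 and DESeq2 576. With 1 of the same 6 left out it ranged from 0 (control of experiment 1 or 3, or treated library of experiment 1) to 1761 (control of experiment 2), with 1 without the treated library of experiment 3 and 894 without that of experiment 2. With 3 libraries a group, changes of scarce genes were limited by the floor of 3 counts.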
